A study of Mus musculus with 15 samples.

Results

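Cybrd1, Ngb, Spint2, Slc16a11, Tmc6, Intu, Hopx and Scml4 are 8 of the 25080 genes listed in the expression tables of mouse thalamus. The study named them because their promoters gained monoubiquitinated histone H2A (H2Aub) with cocaine in control mice while their transcripts were lower with cocaine in the same mice. The members were thus chosen by the lower transcript values of control cocaine against control saline, which are given here as a description. Values used below come from single-library TPM (a relative abundance of transcripts that takes their length into account), divided by a trimmed-mean (TMM) factor per library and called scaled TPM. Of the 8 genes, 7 passed the filter of at least 1 TPM in at least 3 libraries, as did 13471 genes in all, and Scml4 did not. Each of the 8 was in the study's list of transcripts lower with cocaine in control mice. Each was also in its list of promoters with H2Aub specific to cocaine, against saline, in control mice. The same kind of list for the knockout held 0 of the 8, and it leaves out promoters marked there after both treatments. The study reports that most cocaine-specific genes of control mice were not enriched in the knockout, so this absence is not particular to the members.

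H2Aub is placed on histone H2A by the ubiquitin ligases of Polycomb repressive complex PRC1, Ring1 and Rnf2, and is linked to low transcription of the marked gene. Deubiquitinases such as Bap1, Usp16 and Mysm1 take the ubiquitin off again. Usp7 acts on PRC1 and is a partner of Maged1, a member of the MAGE family of proteins that assemble with ubiquitin ligases.

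Thalamus was dissected from mice of 2 to 4 months. Mice titled Maged1 WT, called control here, were compared with mice titled Maged1 cKO, whose floxed Maged1 is deleted by Cre from the vGluT2 promoter. Per the study's methods the cKO mice are hemizygous males and the controls floxed littermates, on a C57Bl6J background. All mice received saline for 3 days and then 5 days of cocaine at 20 mg/kg or of saline vehicle, both intraperitoneal. There were 4 libraries each from saline controls, cocaine-treated controls and saline-treated cKO mice, and 2 from cocaine-treated cKO mice. The sample of cKO cocaine that completes the 15 samples of the series was not analysed here. Because only vGluT2-expressing neurons lose Maged1 and the tissue was not sorted, transcripts of every other cell of the dissected block are in each library, and fewer cells of a type cannot be told apart from less RNA per cell.

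The labels were checked on Maged1. Its scaled TPM was 152, 166, 150 and 151 in control saline and 78.0, 76.6, 68.6 and 64.5 in cKO saline. After cocaine the libraries labelled control had 58.5, 87.9, 77.3 and 71.3, and the pair labelled cKO had 152 and 174. Maged1 was thus low in the saline knockout and, against the labels, high in the cocaine knockout, by a log2 difference of 1.18 from cKO saline (SE 0.13, adjusted p = 0.000242, limma) and of 1.15 from control cocaine (SE 0.13, adjusted p = 0.00431, limma). Every direction below that uses a cocaine library rests on its label. For 4 saline libraries (control saline 3 and 4, cKO saline 1 and 2) the genotype tag also named the other genotype than the title, and Maged1 followed the title. The methods state a common read depth for all samples, but TPM keeps no record of the depth each library reached. Spearman correlations between libraries ran from 0.963 to 0.98. The TMM factors were 0.807 to 0.9466 in cocaine libraries and 1.072 to 1.209 in saline libraries, so in TPM as deposited the median log2 difference of all tested genes, cocaine minus saline, was -0.346 in cKO and -0.335 in control.

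The 8 genes lie on 7 chromosomes of GRCm38 (GENCODE M21 annotation). Cybrd1 is at chr2:71117923-71142926 and Intu at chr3:40531286-40704774, both on the plus strand, Hopx at chr5:77086988-77115121 and Spint2 at chr7:29256323-29281912 on the minus strand, and Scml4 at chr10:42860370-42960780 on the plus strand. Slc16a11 at chr11:70212752-70216417 on the plus strand and Tmc6 at chr11:117765988-117782198 on the minus strand share a chromosome, and Ngb is at chr12:87097531-87102539 on the minus strand. All are protein-coding. Tmc6 overlaps Tmc8, Hopx overlaps the antisense gene Hopxos, Scml4 overlaps the antisense gene Gm34006 and the noncoding Gm48671, and Intu overlaps the pseudogene Gm16114, each on the other strand. The pseudogene Gm48670 overlaps Scml4 on the same strand, so its reads could be shared with Scml4 under any strand setting. The libraries kept strand, but the strand setting of the counting is not given in the sources used here, so reads of the pairs on opposite strands may have been shared too.

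The study scored H2Aub over a promoter region of several kilobases around the start. PRC1 is known to be drawn to unmethylated CpG-rich DNA, so sequence upstream of 4 members is shown with each CpG in capitals. The sequence shown and the windows below cover far less than the region scored. The stretches are from RefSeq promoter windows (GRCm38.p6), hold no annotated exon and end before the RefSeq start. The RefSeq starts of Intu and Cybrd1 lie inside the genes as GENCODE draws them, and the stretch of Intu is downstream of its GENCODE start. Those of Slc16a11, Tmc6 and the other Hopx window used below also lie inside. They are Cybrd1 at chr2:71117804-71117922, plus strand, Intu at chr3:40540517-40540766, plus strand, Spint2 at chr7:29281978-29282227, minus strand, and Hopx at chr5:77115124-77115373, minus strand. Hopx was taken as the CpG-poorest and Spint2 as the CpG-richest of the windows, and Cybrd1 and Intu because their transcripts behaved alike below.
Cybrd1: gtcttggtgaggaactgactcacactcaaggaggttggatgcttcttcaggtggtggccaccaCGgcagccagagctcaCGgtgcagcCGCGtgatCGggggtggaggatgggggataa
Intu: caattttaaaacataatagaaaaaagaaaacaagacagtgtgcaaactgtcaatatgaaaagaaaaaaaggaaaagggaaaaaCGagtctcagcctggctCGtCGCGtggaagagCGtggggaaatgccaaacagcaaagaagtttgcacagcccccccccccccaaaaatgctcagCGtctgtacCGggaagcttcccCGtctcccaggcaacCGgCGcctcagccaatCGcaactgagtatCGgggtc
Spint2: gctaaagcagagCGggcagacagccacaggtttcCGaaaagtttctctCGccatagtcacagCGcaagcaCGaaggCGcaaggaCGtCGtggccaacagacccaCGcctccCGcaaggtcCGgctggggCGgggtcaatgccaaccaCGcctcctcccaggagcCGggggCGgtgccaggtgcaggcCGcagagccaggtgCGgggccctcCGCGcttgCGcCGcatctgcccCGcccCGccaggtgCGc
Hopx: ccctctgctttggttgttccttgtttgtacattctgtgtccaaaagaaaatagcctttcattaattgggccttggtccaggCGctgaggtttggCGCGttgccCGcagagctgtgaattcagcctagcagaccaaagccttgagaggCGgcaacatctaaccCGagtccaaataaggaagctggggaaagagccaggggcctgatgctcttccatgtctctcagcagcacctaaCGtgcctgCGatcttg

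Over the whole window of 300 bases (250 before to 50 after the start), the CpG count was 26 in Spint2, 23 in Cybrd1, 20 in Slc16a11, 19 in Intu, 14 in Tmc6, and 8 and 21 in the windows of 2 Hopx starts. The median of all 32817 windows was 7. The ratio of observed to expected CpG was 0.88 in Intu, 0.806 in Slc16a11, 0.805 and 0.381 in the Hopx windows, 0.729 in Spint2, 0.657 in Cybrd1 and 0.585 in Tmc6, against a median of 0.383. Of the 7 windows of 6 members, 5 were at or above 0.6, which 35.8% of all windows reached. The letters GGGCGG (a GC box, either strand) were in the windows of Cybrd1, Spint2 and Tmc6 and in 35.6% of all windows. TATAAA (13.6% of all windows) and the cAMP response element TGACGTCA (1.79%) were in none of the 7, searched on both strands. Ngb and Scml4 had no window and are not in the bar chart of this ratio. There, all windows of the 6 members but the Hopx window with the lower ratio stand to the right of the tall peak of CpG-poor windows.

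**Figure D1:**
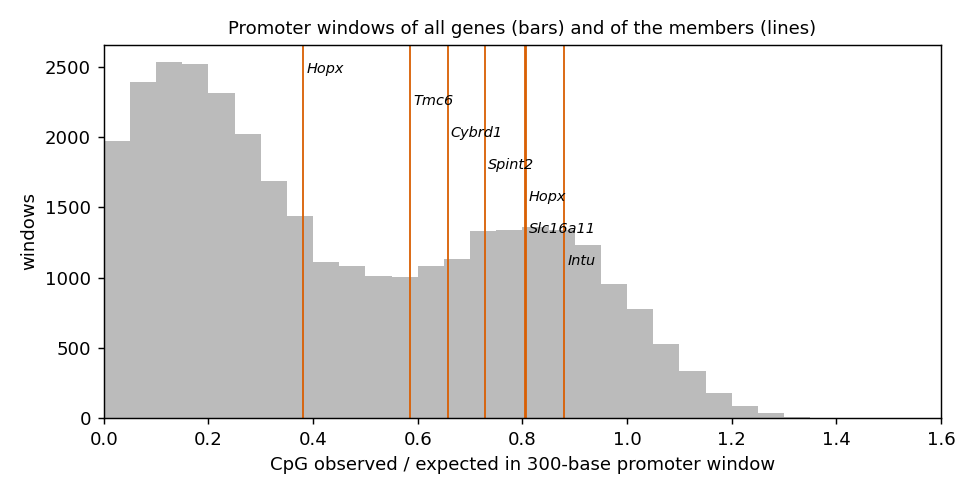
Number of 300-base RefSeq promoter windows (y axis) by the ratio of observed to expected CpG (x axis), with 1 line per window of a member. The lines run from 0.381 (Hopx) to 0.88 (Intu), against a median of 0.383 over 32817 windows, and the lines of Slc16a11 and the other Hopx window nearly coincide.

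Under the labels, the members fell into 2 patterns, a grouping made after their values were seen. Cybrd1 and Intu had nearly equal means in both genotypes after saline and lower values after cocaine in both. Ngb, Spint2, Slc16a11, Tmc6, Hopx and Scml4 had their highest group mean in control saline, lower means in both control cocaine and cKO saline, and a mean in cKO cocaine above that of cKO saline. That last direction holds with TMM, median-of-ratios and quantile scaling, while in TPM as deposited Ngb, Spint2, Slc16a11, Tmc6 and Scml4 had lower values in cKO cocaine than in cKO saline.

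**Figure D2:**
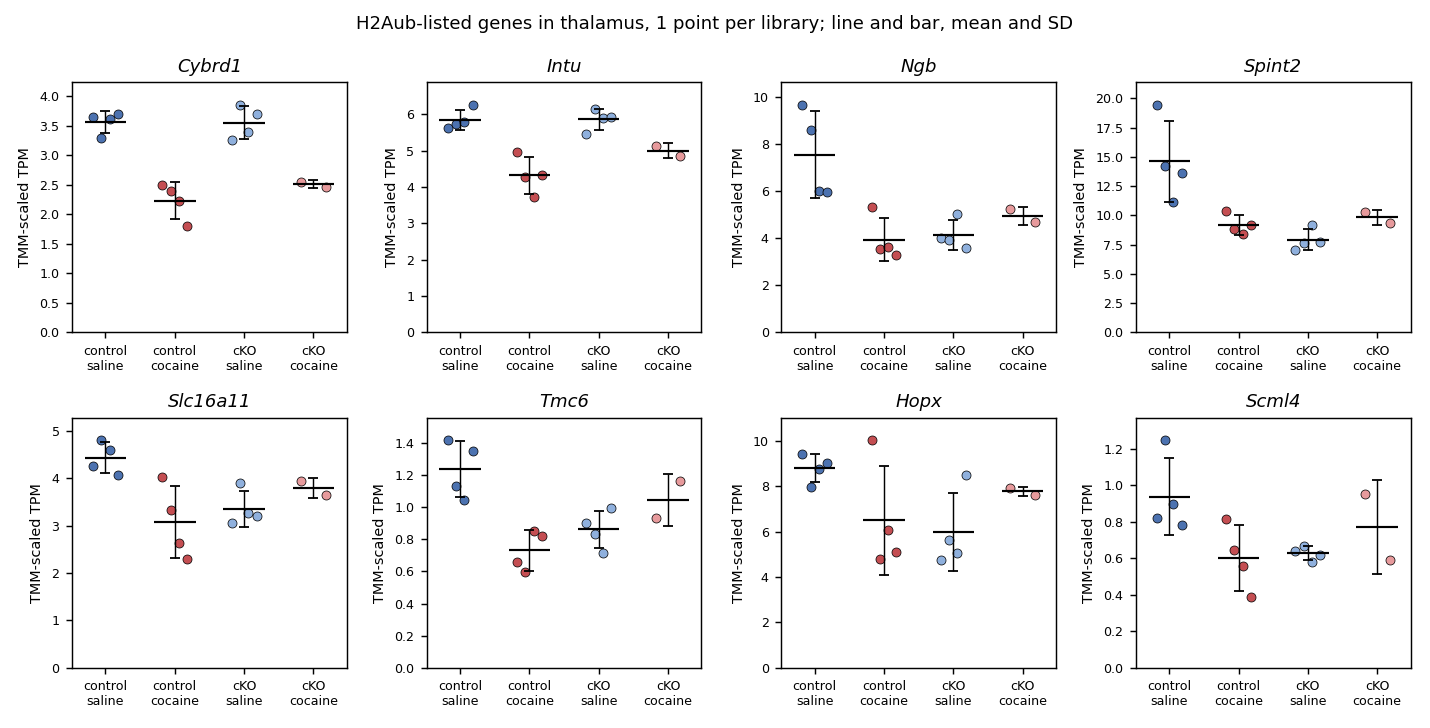
Scaled TPM (y axis, from 0) of the 8 genes in the 4 labelled groups, with 1 point per library, the mean as a line and the SD as a bar. Cybrd1 and Intu are low in both cocaine groups, whereas the other 6 have their highest mean in control saline, with Hopx overlapping between groups. The scale is relative to the TMM factors, and the higher mean in cKO cocaine than in cKO saline turns for 5 of these 6 in TPM as deposited.

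Cybrd1 encodes a ferric reductase of the cytochrome b family that helps iron uptake. Cybrd1 had scaled TPM of 3.64, 3.30, 3.62 and 3.70 in control and 3.26, 3.85, 3.40 and 3.71 in cKO after saline, while after cocaine the control libraries held 2.504, 2.40, 2.23 and 1.80 and the cKO libraries 2.55 and 2.46. Both cocaine groups lay wholly below both saline groups, and the saline groups overlapped. The control difference that chose the gene was -0.58 on the log2 scale, and the cKO difference, which was not used in the choice, was -0.43 (SE 0.10, adjusted p = 0.0109, limma), a change of the mean by -29.5%. This passed the adjusted threshold of 0.05 without reaching the log2 minimum of 0.5 that the study's calls use. The adjusted p was 0.0953 without cKO cocaine replicate 2 and 0.0828 with the libraries whose labels agree.

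Intu encodes inturned, an effector of planar cell polarity that is needed for primary cilia. Intu had scaled TPM of 5.63, 5.72, 5.78 and 6.25 in control and 5.46, 6.15, 5.89 and 5.92 in cKO after saline, while after cocaine the control libraries held 4.96, 4.28, 3.72 and 4.34 and the cKO libraries 5.14 and 4.86. Here too each cocaine library was below each saline library, and the saline means of both genotypes were nearly equal, 5.85 ± 0.276 in control and 5.86 ± 0.288 in cKO (SD, n = 4 each). The log2 difference was -0.40 in control and -0.21 in cKO (SE 0.09, adjusted p = 0.104, limma), which did not pass.

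Ngb encodes neuroglobin, an oxygen-binding globin of neurons. Ngb had scaled TPM of 9.64, 8.58, 5.98 and 5.97 in control and 4.02, 3.93, 5.01 and 3.56 in cKO after saline, while after cocaine the control libraries held 5.32, 3.52, 3.63 and 3.29 and the cKO libraries 5.21 and 4.67. Control saline was above every library of the other groups, and those 3 groups overlapped. The log2 difference of cocaine and saline was -0.85 in control, the largest of the 8 in size, and 0.24 in cKO (SE 0.20, adjusted p = 0.441, limma).

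Spint2 encodes a Kunitz-type inhibitor of serine proteases at the surface of epithelial cells. Spint2 had scaled TPM of 19.4, 14.3, 11.1 and 13.6 in control and 7.04, 7.68, 9.21 and 7.74 in cKO after saline, while after cocaine the control libraries held 10.4, 8.81, 8.43 and 9.19 and the cKO libraries 10.3 and 9.35. Control saline again stood above all others, and the 2 cKO cocaine libraries were above the 4 cKO saline libraries. The log2 difference was -0.61 in control and 0.30 in cKO (SE 0.16, adjusted p = 0.221, limma). Replicate 1 of control saline, the highest for both Ngb and Spint2, also had the highest choroid plexus marker sum of all libraries, 1770 scaled TPM against 51.1 to 101 in the other groups. Without it, the control difference was -0.49 for Spint2 and -0.74 for Ngb.

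Slc16a11 belongs to the family of monocarboxylate transporters. Slc16a11 had scaled TPM of 4.25, 4.80, 4.60 and 4.08 in control and 3.06, 3.90, 3.26 and 3.21 in cKO after saline, while after cocaine the control libraries held 4.02, 3.33, 2.64 and 2.30 and the cKO libraries 3.95 and 3.65. Control saline was above the rest, by a narrow margin from control cocaine replicate 1. The log2 difference was -0.49 in control and 0.16 in cKO (SE 0.15, adjusted p = 0.508, limma).

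Tmc6 encodes a transmembrane channel-like protein. Tmc6 had scaled TPM of 1.42, 1.13, 1.05 and 1.35 in control and 0.899, 0.836, 0.716 and 0.996 in cKO after saline, while after cocaine the control libraries held 0.657, 0.594, 0.853 and 0.821 and the cKO libraries 0.933 and 1.16. The control saline and control cocaine libraries did not overlap, and the cKO cocaine libraries reached into the range of control saline. The log2 difference was -0.50 in control and 0.18 in cKO (SE 0.14, adjusted p = 0.394, limma). At these levels the added 0.5 makes the log2 differences smaller than those of the means, which changed by -40.9% from control saline to control cocaine.

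Hopx and Scml4 are those of the 8 with a known or proposed tie to Polycomb and chromatin regulation. Hopx encodes a homeodomain-only protein that does not bind DNA itself. Hopx had scaled TPM of 9.45, 7.98, 8.77 and 9.02 in control and 4.77, 5.63, 5.08 and 8.50 in cKO after saline, while after cocaine the control libraries held 10.03, 4.80, 6.06 and 5.12 and the cKO libraries 7.93 and 7.63. Replicate 1 of control cocaine was the highest of all 14 libraries and replicate 4 of cKO saline stood in the control saline range, so the groups overlapped. The log2 difference was -0.46 in control, -0.68 without that cocaine library, and 0.38 in cKO (SE 0.24, adjusted p = 0.296, limma).

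Scml4 encodes a protein of the Polycomb group Scm family. Scml4 had scaled TPM of 0.822, 1.25, 0.900 and 0.782 in control and 0.641, 0.670, 0.580 and 0.621 in cKO after saline, while after cocaine the control libraries held 0.817, 0.647, 0.558 and 0.386 and the cKO libraries 0.952 and 0.590. Control saline and control cocaine overlapped in 1 library. Fitted with no filter over 20427 genes, its cKO difference was 0.16 (SE 0.165, adjusted p = 0.623, limma).

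In the test that the choice of genes did not use, cKO cocaine against cKO saline, 0 of the 7 tested members were called higher (1.83% of all tested genes) and 0 lower (1.24%), at an adjusted p under 0.05 and an absolute log2 difference of at least 0.5 in limma. At an unadjusted p under 0.05, 2 were lower, Cybrd1 and Intu (17.5% of all tested genes), and 0 higher (16.2%). With no fold minimum, Cybrd1 alone was lower (10.7%) and 0 were higher (9.19%). The cKO groups did not overlap for Spint2, which was higher with cocaine (21.1%), nor for Cybrd1 and Intu, which were lower (22.2%). Across the 7, 5 log2 differences were positive and 2 negative, with a median of 0.19 beside 0.0005 over all tested genes. A p that misses the threshold with 2 cocaine libraries does not show that a gene kept its level.

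**Figure D3:**
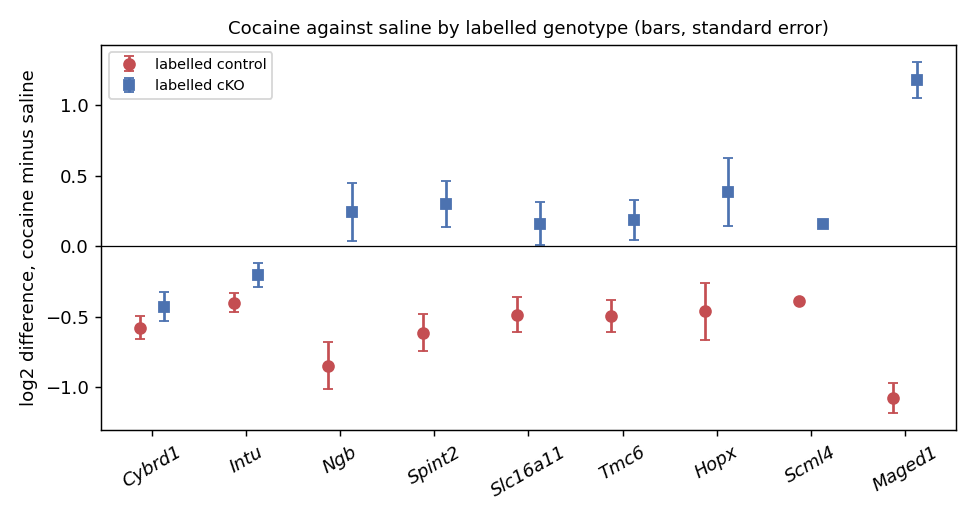
Log2 difference of scaled TPM + 0.5, cocaine minus saline (y axis), by gene in labelled control (circles) and labelled cKO (squares), with the standard error of limma as a bar (Scml4, below the filter, has none). All 8 control values are below 0 because that contrast chose the genes. In cKO, Cybrd1 and Intu are below 0 and the other 6 above, which for Ngb, Spint2, Slc16a11, Tmc6 and Scml4 turns in TPM as deposited, and Maged1 goes against the labels in both.

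The control contrast chose the genes, so its counts are given as a description from which nothing is read. By the call rule above, Cybrd1, Ngb and Spint2 were on the inner side of the threshold, 3 of the 7 (1.56% of all tested genes lower, 1.54% higher). Just outside the fold were Tmc6 at -0.496 and Slc16a11 at -0.487, followed by Hopx at -0.46 and Intu at -0.40. Which genes are inside depends on the settings. Cybrd1 was at -0.499 without control cocaine replicate 4 and Spint2 at -0.485 without control saline replicate 1, while a pseudocount of 0.1 put Tmc6 at -0.688 and Slc16a11 at -0.542. Grouped by the genotype tag, each saline group mixes libraries of high and low Maged1. The control differences were then -0.56 for Cybrd1, -0.58 for Ngb, -0.26 for Spint2, -0.34 for both Slc16a11 and Tmc6, -0.38 for Intu, -0.28 for Scml4 and -0.10 for Hopx. With groups by title, all but Hopx of the 7 had every control cocaine library below every control saline library (10.3% of all tested genes).

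The saline levels of both genotypes, which share the control saline libraries with the choice and were used to form the 2 patterns, are given with no test. The log2 difference, cKO minus control, was -0.82 for Spint2, -0.78 for Ngb, -0.55 for Hopx, -0.36 for Slc16a11, -0.35 for Tmc6 and -0.34 for Scml4, and 0.00 for both Cybrd1 (-0.0049) and Intu (0.0023). Ngb, Spint2, Slc16a11 and Tmc6, 4 of the 7 tested members, had all cKO saline libraries below all control saline libraries (5.8% of all tested genes), and 0 had them above (7.02%). These values change if the genotype tag is used in place of the title. Maged1 followed the title in the saline libraries where both differ, so each saline group by tag mixes high and low Maged1. By the genotype tag, the differences were -0.24 for Ngb, -0.12 for Spint2, -0.07 for Slc16a11, -0.04 for Tmc6, -0.13 for Scml4 and 0.18 for Hopx, and the cocaine minus saline differences in cKO were -0.026 for Ngb, -0.054 for Spint2, 0.032 for Tmc6, 0.022 for Hopx and 0.015 for Slc16a11, so that by the tag the second pattern had cKO differences near 0. After cocaine, the libraries labelled cKO were higher than control by log2 values between 0.09 (Spint2) and 0.33 (Tmc6), and only Tmc6 of the 7 had no overlap (7.03% of all tested genes higher, 10.6% lower).

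**Figure D4:**
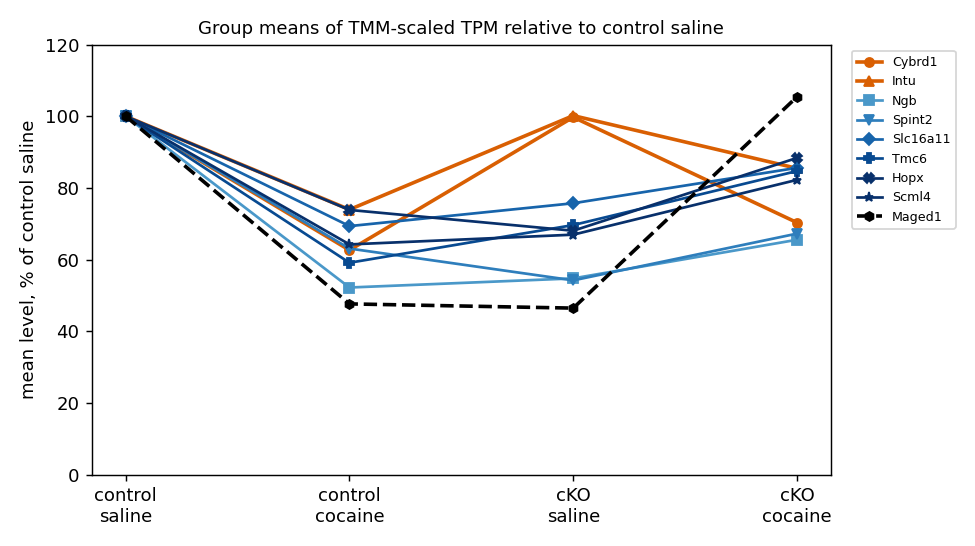
Mean scaled TPM of each group as a percentage of control saline (y axis, from 0), with Cybrd1 and Intu in orange, the other 6 members in blue and Maged1 dashed, and lines joining the unordered groups of a gene only as a guide. Cybrd1 and Intu return to about 100% in cKO saline, while the other 6 stay between 54.2% (Spint2) and 75.7% (Slc16a11), and Maged1 is near that of control saline in the libraries labelled cKO cocaine.

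Levels of TPM, which are per length, could also be compared between members. In control saline the order was Spint2 (14.6 ± 3.49 scaled TPM, SD, n = 4), Hopx (8.81 ± 0.619), Ngb (7.54 ± 1.86), Intu (5.85 ± 0.276), Slc16a11 (4.43 ± 0.328), Cybrd1 (3.56 ± 0.182), Tmc6 (1.24 ± 0.175) and Scml4 (0.937 ± 0.211). Neighbours whose ranges overlapped over libraries were Hopx with Ngb, Ngb with Intu, and Tmc6 with Scml4, so that these pairs were not ordered beyond their spread.

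Library sums of markers of ependyma, choroid plexus and neighbouring nuclei are given beside these values. Ependymal and motile cilia markers, led by Rarres2, Foxj1 and Tmem212, had library sums between 50.2 and 53.5 scaled TPM in saline controls, between 8.20 and 53.0 in cocaine controls, between 7.87 and 36.7 in saline cKO and of 42.2 and 62.2 in cocaine cKO. All 10 tested genes of that list had negative log2 differences in control (median -0.69) and all 10 positive ones in cKO (median 0.97), the same signs as in the second pattern, with 1 called in cKO (Rsph1, higher) and 0 in control by limma. At an unadjusted p under 0.05 the counts were 4 higher in cKO (16.2% of all tested genes) and 3 lower in control (15.5%). Habenula markers (Tac2, Gpr151, Nwd2 and 4 others) had sums between 52.9 and 78.9, 8.54 and 175, 9.76 and 50.9, and 29.6 and 62.8 in the same order of groups, overlapping between saline and cocaine in both genotypes, with 0 of 7 called and 0 at an unadjusted p under 0.05 in either cocaine contrast by limma. Choroid plexus markers, led by Ttr, summed to 57.5 to 1770, 51.1 to 63.3, 58.0 to 101 and 55.3 to 60.4 in the same order, midline thalamus markers to 126 to 142, 71.6 to 117, 50.8 to 110 and 133 to 136, and hypothalamus markers, led by Oxt, to 130 to 455, 3.04 to 128, 8.71 to 144 and 30.5 to 70.1. The choroid plexus sum of 1770 is that of control saline replicate 1, the other control saline libraries lay between 57.5 and 108, and limma called 0 of its 6 tested genes in either cocaine contrast (at an unadjusted p under 0.05, 0 in cKO and 1 lower in control). Oxt, the oxytocin gene, ran from 87.5 to 182 in control saline and from 0 to 0.233 in control cocaine. In cKO it ran from 0.578 to 24.5 after saline and from 8.74 to 52.8 after cocaine. Astrocyte markers summed to 579 to 665 scaled TPM over all 14 libraries, with members in both directions (6 positive and 4 negative in cKO, where Agt was called higher at 0.59, and 7 positive and 3 negative in control, with 0 called by limma, and 2 higher and 1 lower at an unadjusted p under 0.05). Oligodendrocyte markers were positive for 8 of 8 in control, with Mobp called higher at 0.61, and negative for 6 of 8 in cKO, with 0 called by limma (at an unadjusted p under 0.05, 4 higher in control and 2 lower in cKO). As the check of the tissue, the thalamic glutamatergic list was present in every group, with Slc17a6, the transcript of vGluT2, averaging between 81.0 and 88.0 scaled TPM. In that list of 7, Prkcd (0.75) and Lef1 (0.55) were called higher in control and Gbx2 (0.94) in cKO, and Rora was at -0.49 in cKO (adjusted p = 0.0371, limma). For all these lists, the shares over all tested genes at an unadjusted p under 0.05 were 16.2% higher and 17.5% lower in cKO. In control they were 21.4% higher and 15.5% lower. Limma called 1.83% of all tested genes higher and 1.24% lower in cKO, and 1.54% higher and 1.56% lower in control. The list genes are named to complete counts of calls. The part of these differences in the members' values was not tested.

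To relate members to cell types free of group differences, each gene's deviations from its group mean were correlated with those of 13 marker lists over the 14 libraries. Of 104 relations, 0 passed a Benjamini-Hochberg adjusted p under 0.05 by a permutation test within groups, with Pearson or with Spearman, and 13 had an unadjusted Pearson p under 0.05, where 5.2 are expected. Cybrd1 had the highest values, with the habenula list (r = 0.87, rho = 0.82, permutation p = 0.00282, adjusted 0.0752) and with the ependymal list (r = 0.87, rho = 0.77, permutation p = 0.00289, adjusted 0.0752). Leaving out the 2 libraries farthest from the median of the list lowered these to 0.655 and 0.671. The same adjusted p of 0.0752, the smallest by Pearson, was reached by Cybrd1 with the striatum list (r = 0.55, rho = 0.72, permutation p = 0.00344, and r = 0.604 without the 2 farthest libraries) and by Hopx with the fibroblast and meninges list (r = 0.48, rho = 0.58, permutation p = 0.00279, then 0.54) and the choroid plexus list (r = 0.44, rho = 0.50, permutation p = 0.00362, then 0.656). Hopx was related to the habenula list with r = 0.77 (rho = 0.66, permutation p = 0.0455, adjusted 0.391), and control cocaine replicate 1, where Hopx reached 10.03, held the highest habenula sum, 175. Spint2 was related to the choroid plexus list with r = 0.77 (rho = 0.53, permutation p = 0.0472, adjusted 0.391), and Slc16a11 to the ependymal list with r = 0.76 (rho = 0.61, permutation p = 0.0324, adjusted 0.386). Without the 2 farthest libraries these 3 were 0.647, 0.631 and 0.667. Slc16a11 with the habenula list (r = 0.73, rho = 0.40, permutation p = 0.0618, adjusted 0.411) came to 0.159 without the 2 farthest libraries, so that relation rests on those libraries. Hopx had a negative relation with the hypothalamus list (r = -0.65, rho = -0.60, permutation p = 0.0399, adjusted 0.391), at -0.555 without the 2 farthest libraries. Ngb and Tmc6 had no r beyond 0.6 in either direction, and Intu only with the hypothalamus list (-0.62).

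**Figure D5:**
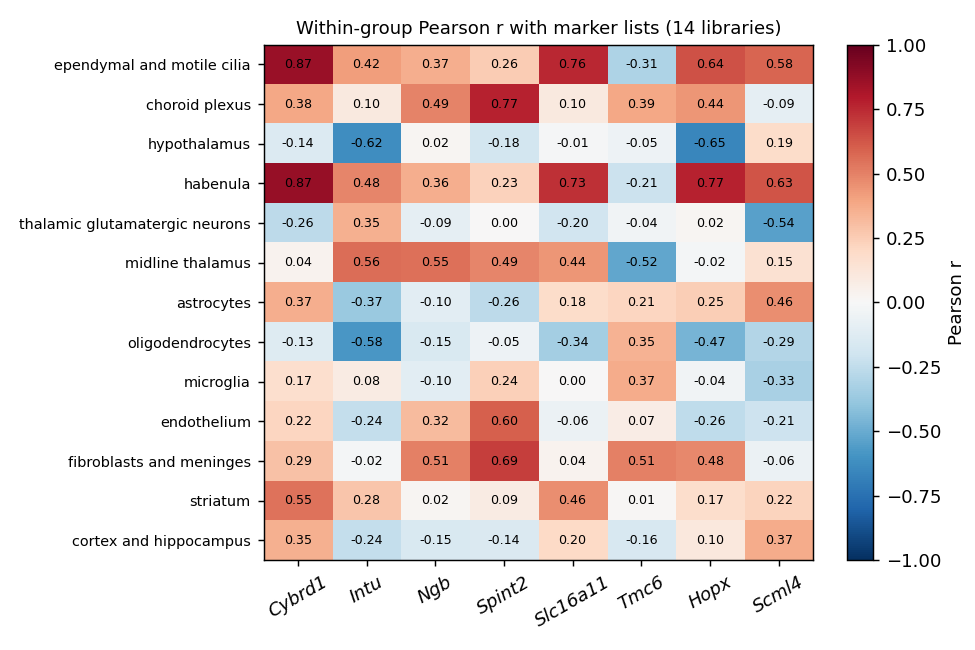
Pearson r (colour and printed value) of the deviations from group means of each member (columns) and each marker list (rows) over 14 libraries. The highest values are those of Cybrd1 with the ependymal and habenula lists, both 0.87, and none of the 104 relations passed an adjusted p under 0.05.

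Among the members themselves, within-group deviations of Ngb and Spint2 went together most (r = 0.80 over 14 libraries), followed by Slc16a11 with Scml4 (0.79) and Cybrd1 with Slc16a11 (0.73), while Slc16a11 and Tmc6 went in opposite directions (-0.61). Of all tested genes, those most like Cybrd1 by the same measure were Ttc21a (0.92), Dnaaf3 (0.92) and Gm5741 (0.91), and those most like Slc16a11 were Cfap46 (0.94), Firre (0.92) and Asap3 (0.91). For Intu they were Purg (0.97), Sox1ot (0.96) and Sh3bp4 (0.93), and for Hopx Kctd12 (0.95), Nptx2 (0.94) and Wif1 (0.94). Ephb4 (0.91), Sulf1 (0.89) and Bcl2l1 (0.89) were nearest to Spint2. 4933404O12Rik (0.91), Zfp597 (0.90) and Ap5s1 (0.88) were nearest to Ngb, and D030056L22Rik (0.93), Mfsd12 (0.87) and Nudt16 (0.84) to Tmc6. These are the highest of 13471 values each and are descriptions. With Maged1, the within-group r was -0.81 for Hopx, -0.60 for Intu, and between -0.34 and -0.02 for the other 6. These r leave out differences between group means. As a share of control saline, mean scaled TPM of Maged1 was 47.6% in control cocaine, 46.5% in cKO saline and 105% in cKO cocaine. Ngb, Spint2, Slc16a11, Tmc6, Hopx and Scml4 were also lower in control cocaine and cKO saline. Their cKO cocaine means were also above cKO saline, at 65.5% (Ngb) to 88.4% (Hopx) of control saline. Whether these members follow Maged1 between groups was not tested.

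Transcripts of PRC1, the complex that places H2Aub, and of proteins listed for its removal were examined in the same fit. Of 20 genes of PRC1, among them the ligases Ring1 and Rnf2, 19 were tested, and 0 were called in either direction in cKO or in control by limma. With no fold minimum, 3 were higher and 4 lower in cKO (9.19% and 10.7% of all tested genes), and 4 higher and 3 lower in control, where 15.0% of all tested genes were higher and 9.35% lower. At an unadjusted p under 0.05 the counts were 5 higher and 6 lower in cKO (16.2% and 17.5% of all tested genes) and 4 of each in control (21.4% and 15.5%). Ring1, named after its values were seen, had a cKO log2 difference of 0.43 (SE 0.07, adjusted p = 0.00165, limma) and Bmi1, likewise named after its values were seen, one of -0.37 (SE 0.06, adjusted p = 0.00123, limma). Of 7 genes listed for removal of H2Aub, 0 were called in either contrast. At an unadjusted p under 0.05, 1 was higher and 2 lower in cKO (16.2% and 17.5% of all tested genes) and 1 lower in control (15.5%). With no fold minimum, Usp21 alone was higher in cKO (9.19%), at 0.25 (adjusted p = 0.0302, limma), and 0 were higher in control (15.0%). Mysm1 alone was lower, at -0.26 in cKO (10.7%, adjusted p = 0.0429, limma) and -0.28 in control (9.35%, adjusted p = 0.00941, limma). Usp7, named as the partner of Maged1, had scaled TPM means of 19.3 in control saline, 19.0 in control cocaine, 20.1 in cKO saline and 18.4 in cKO cocaine, and its cKO log2 difference was -0.12 (SE 0.05, adjusted p = 0.0703, limma).

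The study lists hold 44 other genes with both H2Aub after cocaine and lower transcripts with cocaine in control, of which 39 were tested. In cKO, 24 of their log2 differences were positive and 15 negative, with a median of 0.07 beside 0.0005 over all tested genes. Limma called 4 higher and 1 lower, where 1.83% and 1.24% of all tested genes were called. The control contrast chose these genes too, so their control values are no separate evidence. Fbln1 (fibulin, of the extracellular matrix) had 1.01, Nbl1 (a bone morphogenetic protein antagonist) 0.95 and Mcub (a mitochondrial calcium channel subunit) 0.76, all called higher, as was Galr1, a galanin receptor, at 0.63. Zfp488, a zinc finger gene of oligodendrocytes, was called lower at -0.95, and next were Ocln, of tight junctions, at -0.29 and Rimklb at -0.27, which were not called. Zfp488 averaged 81.2 and 45.1 scaled TPM in control saline and cocaine and 91.1 and 46.9 in cKO saline and cocaine, so like Cybrd1 and Intu it was low in both cocaine groups. Fbln1, at 8.35, 5.48, 4.79 and 9.87 in the same order, had its low values in control cocaine and cKO saline. The members' cKO values of -0.43 to 0.38 lay inside the range of these 39 genes.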

How the data were processed

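The authors deposited 1 table of TPM per library, 2 of them with a decimal comma (recorded as other), read here as a point. Per the submitters' processing notes and methods, STAR 2.5.3a, salmon and GRCm38.p4 (mm10) were used, and the authors ran TMM and limma on counts, which were not used here. The study's methods state a common read depth, but TPM keeps no depth of a library, so its counting error cannot be computed. Groups follow the titles of the samples, and libraries are separate mice.

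TPM were divided by TMM factors (30% of log ratios and 5% of means trimmed), 0.5 was added and log2 taken. The filter kept any gene that reached 1 TPM in no fewer than 3 libraries. These were fitted with limma 3.58.1 (R 4.3.3), 4 group means, an intensity trend and all 14 libraries. Python 3.11.15, numpy 2.4.6, pandas 2.3.3, scipy 1.17.1 and matplotlib 3.10.9 did the rest. Relations used exact permutation within groups (27648 arrangements). The members, lists and tests were chosen with earlier results of these data known. The fit was tested on simulated data. Named genes are the members, Maged1, the 3 genes most like each tested member, leading genes of marker lists with a relation given, called pathway genes, and the 3 highest and lowest of the other study genes. Genes named outside this rule are marked or complete a count of 5 or fewer. Columns with H2Aub and transcript lists of the study were used only for membership. Alternatives were other scalings (deposited, median-of-ratios, quantile), pseudocounts of 0.1 and 1, no filter or a mean of at least 5 TPM, cKO libraries alone, no trend, replicate block, genotype tag, libraries with agreeing labels, no fold minimum, and each library left out.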

Additional observations from a re-analysis of the deposited data

Results flagged for a closer look

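Ngb in replicate 1 of control cocaine, at 5.32 scaled TPM (5.315), stood apart from the other 3 libraries of its group, with 0.83 of the group's range between it and the nearest. It was the only far library in 24 groups of 4 examined, and chance flags about 1 in 20. For 4 members, each control cocaine library lay below its saline mean and each cKO cocaine library above its saline mean, and the log2 difference of cocaine and saline in cKO exceeded that in control by 1.09 (1.091) for Ngb, 0.91 (0.913) for Spint2, 0.65 (0.646) for Slc16a11 and 0.68 (0.681) for Tmc6. These differences between genotypes were not tested, because the control contrast chose the genes.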

How the results depend on the processing

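In TPM as deposited, cKO log2 differences of Ngb (-0.10), Spint2 (-0.063), Slc16a11 (-0.18) and Tmc6 (-0.066) turned negative, and 2 members were called lower, Cybrd1 (-0.76) and Intu (-0.56). With those unscaled values 3082 of the 13471 tested genes were called lower in cKO and 65 higher, so nothing particular to the 2 members is read from their calls. With the genotype tag Ngb was at -0.026, Spint2 at -0.054 and Hopx, Tmc6 and Slc16a11 at 0.022, 0.032 and 0.015, and 4 marker relations passed. Each saline group by tag mixes high and low Maged1, so the deviations used there also hold the difference between titled genotypes. With no fold minimum 1 member was lower, and without control cocaine replicate 2, 1 relation passed (0 to 1 over the 14 libraries left out). Members called in cKO stayed at 0 in each direction over those 14. The replicate block changed no call (Cybrd1 -0.46, adjusted p = 0.0308 in limma, Intu -0.22). Same-numbered libraries did not deviate together (correlations from -0.165 to 0.103, 1 of 18 over 0.1). The numbers thus gave no sign of pairing, though such correlations cannot exclude it. Over the alternatives, the adjusted p of limma was 0.000131 to 0.0953 for Cybrd1 and 0.00099 to 0.397 for Intu. The depth of each library cannot be read from TPM, and 2 cKO cocaine libraries, opposite Maged1 labels and low TPM of Tmc6 and Scml4 limit these values.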
